A study of Mus musculus with 6 samples.

Results

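Neuronal genes that the repressor REST is known for, or that serve as general marks of neurons, were followed in whole testes of newborn mice whose germ cells lacked the corepressor SIN3A. The 39 members, which also include Rest itself and its partner Rcor1, were chosen by gene name. Every non-control probe that the array assigns to one of them was taken, which gave 58 probes of the 35072 gene names on the array. The list was drawn up with earlier results of the same arrays known, the high signal of Cacng2 in the mutant among them, so the counts below describe the members and are not independent evidence.

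Total RNA from whole testes of male mice at postnatal day 0, of FVB.129/Sv mixed strain, was labelled with Cy3 and hybridised to 1-colour Agilent arrays, with 2 animals in each of 3 groups and 1 array per animal. VSKO mice carried Vasa-cre with 1 deleted and 1 floxed Sin3a allele, HEMI mice carried Vasa-cre with 1 deleted and 1 intact Sin3a allele, and WT mice carried Vasa-cre with both Sin3a alleles intact. Vasa-cre is the Cre recombinase under the promoter of Ddx4 (Vasa), a germ cell gene, so the floxed allele is cut in germ cells while somatic cells keep it, and the controls carry the Cre too. The germ cells of a newborn testis, the gonocytes, are a minority beside Sertoli, peritubular, interstitial, vascular and nerve cells, and fewer cells of a type and less RNA per cell cannot be told apart in such bulk RNA.

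REST is a zinc finger protein that binds a long DNA element called RE1 near neuronal genes and keeps them off in cells that are not neurons. One end of REST recruits SIN3 proteins with histone deacetylases. The other end recruits RCOR1 (CoREST) with the demethylase KDM1A. Loss of SIN3A takes away a scaffold of the first arm, and the question here was whether neuronal genes rose together when it was lost.

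All 6 arrays lay on 1 slide, and 59.2% to 64.53% of their spots were well above background, the scanner software's flag for a measurable spot, with 0 saturated spots. VSKO and HEMI arrays lay in slide row 1 and WT arrays in row 2, so slide row and genotype cannot be told apart in comparisons with WT. Levels are log2 signals relative to the 75th percentile of the array, so a gene at 0 lies at that percentile. Sin3a itself had log2 levels of 0.61 and 0.38 in VSKO, 0.89 and 0.89 in HEMI, and 1.09 and 1.11 in WT. It was thus lowest on both VSKO arrays, without passing the test (VSKO minus WT -0.60 ± 0.13, SE; limma adjusted p = 0.135). Which part of Sin3a is deleted is not given in the sources used here, so the probe may lie outside it.

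Of the 39 members, 30 were bright, meaning well above background on all 6 arrays. Another 6 (Cacng2, Cplx1, Elavl3, Hpcal4, Scg2 and Syt4) were near background: measurable on both arrays of at least 1 group, but not on all 6. The remaining 3 (Calb1, Disp2 and Gria2) had no probe that was measurable on both arrays of any group, and were not tested. Grin1, a bright member with low signal, averaged -4.85 in VSKO and -4.55 in WT, and Scg2, the member nearest to joining the bright ones, was measurable on 5 of 6 arrays.

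The bright members did not rise as a block in VSKO testes. Their median VSKO minus WT difference was 0.15 on the log2 scale, beside -0.02 over all 22363 bright genes, and single members spread between -0.58 and 2.58. Above zero lay 19 of the 30 (63.3%), against 47.4% of bright genes, and 20 of the 30 lay within 0.5 of WT in either direction. Rest and Rcor1, the repressor and its partner, count among both the 19 and the 20. Both VSKO arrays exceeded both WT arrays for 11 of the 30 members, where 21.2% of bright genes did so. Both lay below for 9, where 23.9% of bright genes did so. The members above WT were led by secretory granule proteins and by a few cytoskeletal genes. Those below included Syt1, Syt11, Syn1, Rab3a and Syp of the vesicle release machinery. That machinery holds 10 of the 30 bright members, more than any other role. The 9 members below are also near the share of all bright genes, so they mark no trait of that machinery. Larger differences were one-sided: 4 bright members (13.3%) lay 1 log2 unit or more above WT, against 1.49% of bright genes, and 0 lay as far below, against 1.85%.

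**Figure D1:**
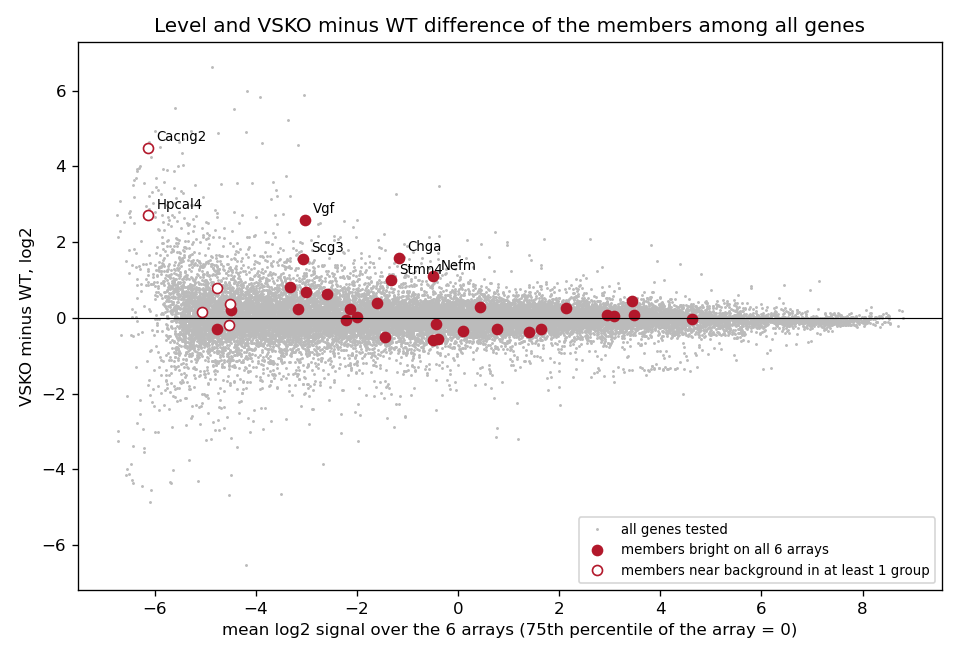
Mean log2 signal over the 6 arrays (x axis, the array's 75th percentile being 0) against the VSKO minus WT difference in log2 (y axis). Grey points are all 24570 genes tested, filled red points the 30 bright members and open red points the 6 members near background. Cacng2 and Hpcal4 lie at the dim edge where the spread of all genes is widest, while Vgf, Scg3, Chga, Nefm and Stmn4 lie at brighter levels.

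Limma called 4 of the 36 tested members higher in VSKO than in WT at an adjusted p under 0.05, where 0.346% of all genes were called higher. It called 0 members lower, where 0.611% of all genes were called lower, and 13 of the 36 members (36.1%) had an unadjusted p under 0.05 in either direction, against 14.7% of all genes. The 4 were Vgf and Stmn4, which were bright, and Hpcal4 and Cacng2, which were near background. Hpcal4 and Cacng2 entered the test through the VSKO arrays alone, where they are high, so the count of 4 includes genes that had to differ. Of the 30 bright members 2 were called higher, where 0.228% of bright genes were. With only the 4 VSKO and WT arrays in the fit, 0 members were called. Leaving out either VSKO array left 2 called, and leaving out any 1 of the HEMI or WT arrays left 0.

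**Figure D2:**
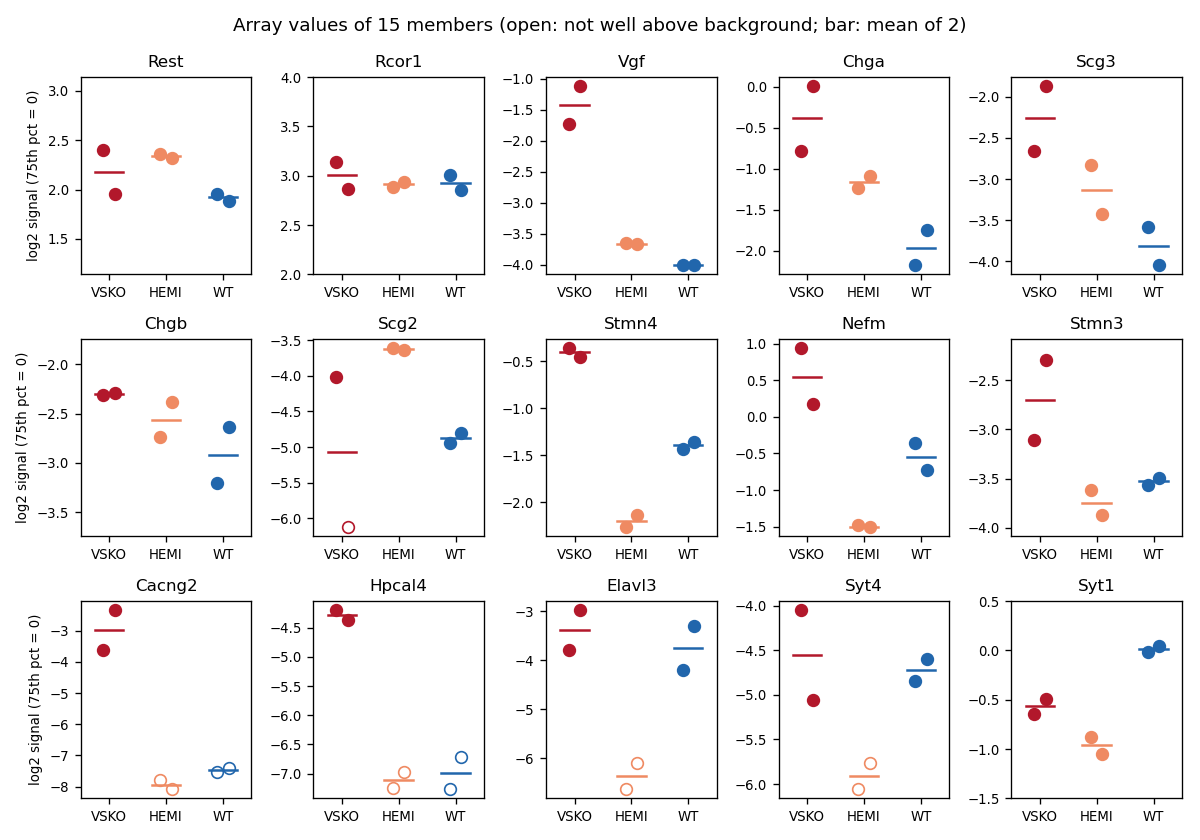
Log2 signal (y axis, the array's 75th percentile being 0) of 15 members on each array, by group (VSKO, HEMI, WT from left to right), with a bar at the mean of the 2 arrays. Filled points were well above background and open points were not. Vgf, Hpcal4 and Cacng2 stand high on both VSKO arrays, Stmn4 and Nefm are highest in VSKO and lowest in HEMI, and Syt1 is highest in WT.

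The secreted and granule proteins held the highest bright members. Vgf, a secreted neuropeptide precursor that is a known REST target, rose in VSKO. Its log2 levels were -1.73 and -1.12 in VSKO, -3.65 and -3.67 in HEMI, and -4.01 and -4.01 in WT. Both VSKO arrays lay far above the other 4, which lay close together. The VSKO minus WT difference of 2.58 ± 0.22 (SE) corresponded to 5.99-fold (limma adjusted p = 0.0279), and the adjusted p ranged from 0.00986 to 0.151 over the alternatives. Against HEMI the VSKO level was 4.71-fold higher, which missed the threshold (limma adjusted p = 0.0592).

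Vgf had 1 probe, placed at chr5:137509153-137509212 on the plus strand in mm9. It is shown because it carries the clearest bright difference.
Vgf: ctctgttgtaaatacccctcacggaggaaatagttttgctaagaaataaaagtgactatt

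Granins help to pack hormones into dense-core granules, and none of the 4 passed the test. Chga, Scg3 and Chgb lay above WT on both VSKO arrays, and Scg2 did not. Chga (chromogranin A) had -0.78 and 0.01 in VSKO, -1.23 and -1.09 in HEMI, and -2.18 and -1.75 in WT, so that the 3 groups did not overlap. The VSKO level was 3.0-fold that of WT (difference 1.58 ± 0.30, SE; limma adjusted p = 0.107). Scg3, a granin that binds chromogranin A in granules, had -2.66 and -1.87 in VSKO, -2.83 and -3.43 in HEMI, and -3.58 and -4.05 in WT. It followed the same order of groups, 2.93-fold higher in VSKO than in WT (adjusted p = 0.153).

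Chgb (chromogranin B) had -2.31 and -2.29 in VSKO, -2.74 and -2.38 in HEMI, and -3.20 and -2.64 in WT. Its VSKO arrays were again above both WT arrays, by 0.62 ± 0.23 (SE; limma adjusted p = 0.322). Scg2 (secretogranin II) differed between the VSKO arrays, with -4.01 on one array and -6.13, not well above background, on the other, against -3.61 and -3.63 in HEMI and -4.94 and -4.81 in WT. Bdnf, a neurotrophin, averaged -2.02 ± 0.11 in VSKO, -2.16 ± 0.15 in HEMI and -2.24 ± 0.38 in WT (SD, n = 2 each), and its groups overlapped. Over the 6 members of this role the median VSKO minus WT difference was 1.09, with 1 called higher.

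Among the 7 cytoskeletal members, all bright, only Stmn4 was called, and the role's median VSKO minus WT difference was 0.02. Stmn4, a stathmin that binds tubulin, had -0.36 and -0.45 in VSKO, -2.27 and -2.14 in HEMI, and -1.43 and -1.36 in WT. The pairs of arrays were tight and the groups did not overlap, with VSKO highest and HEMI lowest. VSKO was 1.99-fold higher than WT (difference 0.99 ± 0.12, SE; limma adjusted p = 0.0447, between 0.0277 and 0.208 over the alternatives) and 3.48-fold higher than HEMI (adjusted p = 0.0359, between 0.0171 and 0.157).

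Stmn4 has a second probe, which gave differences of 0.95 to WT and 2.02 to HEMI. The probes are shown because their agreement is not a separate check: they share 44 bases, printed in capitals, at chr14:66980426-66980485 and chr14:66980442-66980501, both on the plus strand of mm9.
Stmn4, brighter probe: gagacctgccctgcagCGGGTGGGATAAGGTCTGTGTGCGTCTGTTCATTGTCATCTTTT
Stmn4, second probe: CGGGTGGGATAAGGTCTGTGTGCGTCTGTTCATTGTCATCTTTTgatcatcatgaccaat

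Nefm, the medium neurofilament, showed the same order of groups as Stmn4 on a single probe. Its log2 levels were 0.94 and 0.17 in VSKO, -1.48 and -1.51 in HEMI, and -0.36 and -0.73 in WT. The differences were 1.1 between VSKO and WT and 2.05 between VSKO and HEMI, neither of which passed the test (limma adjusted p = 0.185 and 0.113). Stmn3, another stathmin, had -3.11 and -2.30 in VSKO, -3.62 and -3.87 in HEMI, and -3.56 and -3.49 in WT. It was higher on both VSKO arrays than on the other 4, by 0.82 over WT (adjusted p = 0.290).

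The other cytoskeletal members lay at or under WT. Ina (alpha-internexin), a neuronal intermediate filament, had -0.82 and -0.45 in VSKO, -0.46 and -0.51 in HEMI, and -0.28 and 0.11 in WT. Tubb3, the tubulin used as a mark of neurons, had 0.59 and 0.51 in VSKO, 0.82 and 1.1 in HEMI, and 0.85 and 0.82 in WT. Both VSKO arrays were below both WT arrays for Ina and Tubb3, by 0.55 and 0.29 on the log2 scale, and neither was called (adjusted p = 0.305 and 0.431). Nefl, the light neurofilament, and Stmn2, a growth cone stathmin, gave VSKO minus WT differences of 0.02 and -0.05. For both, the HEMI arrays disagreed more than the groups did: -1.21 and -2.74 for Nefl, and -0.86 and -3.32 for Stmn2. Nerve markers outside the members, named here after their values were seen, differed between the same arrays. Prph, a neurofilament-like protein of peripheral nerves, had -2.24 and -0.45 in VSKO, -0.09 and -1.82 in HEMI, and -1.08 and -1.09 in WT. Gap43, a growth cone protein, had -3.75 and -2.0 in VSKO, -1.95 and -3.41 in HEMI, and -2.38 and -2.83 in WT. For both genes and Stmn2, VSKO replicate 2 was above VSKO replicate 1 and HEMI replicate 1 above HEMI replicate 2.

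Limma called 0 of the 12 members of the vesicle release machinery in VSKO against WT (3 had an unadjusted p under 0.05), and their median difference was 0.02. Syt1, the calcium sensor of fast release, had the lowest VSKO minus WT difference of the bright members. Its levels were -0.64 and -0.49 in VSKO, -0.88 and -1.05 in HEMI, and -0.02 and 0.05 in WT. WT was thus higher than all 4 other arrays, by 0.58 over VSKO and 0.98 over HEMI, without passing the test (limma adjusted p = 0.151 and 0.0956). Syt11, a synaptotagmin without calcium sensing, had 0.06 and 0.08 in VSKO, -0.18 and -0.20 in HEMI, and 0.47 and 0.36 in WT. It showed the same order as Syt1, with a VSKO minus WT difference of -0.35.

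Syn1 (synapsin I), which tethers vesicles and is a classic REST target, also lay under WT. It had -1.56 and -1.58 in VSKO, -1.71 and -1.69 in HEMI, and -1.27 and -0.89 in WT (VSKO minus WT -0.49, limma adjusted p = 0.262). Rab3a, a vesicle GTPase, had 1.24 and 1.28 in VSKO, 1.20 and 1.40 in HEMI, and 1.45 and 1.82 in WT. Syp (synaptophysin), a vesicle membrane protein, had 1.46 and 1.61 in VSKO, 1.59 and 1.56 in HEMI, and 1.96 and 1.71 in WT. For these members, too, WT was above all 4 arrays with a Sin3a deletion.

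Stx1a (syntaxin), a SNARE of the plasma membrane, lay on the other side of WT, with 0.74 and 0.39 in VSKO, 0.41 and 0.51 in HEMI, and 0.26 and 0.28 in WT. Unc13a, which primes vesicles, was dim and had -4.38 and -4.40 in VSKO, -4.40 and -4.52 in HEMI, and -4.49 and -4.73 in WT. Their VSKO minus WT differences of 0.29 and 0.22 did not pass the test. Snap25, the SNARE partner of syntaxin, was among the brightest members and near WT, at 3.17 ± 0.07 in VSKO, 2.99 ± 0.36 in HEMI and 3.11 ± 0.09 in WT (SD, n = 2 each; 95% interval of VSKO minus WT -0.44 to 0.56). Rab3c, a GTPase related to Rab3a, gave 0.44 in VSKO minus WT by its brightest probe, within the spread of its arrays. Another of its probes was below background throughout, so this level may not be that of Rab3c alone. Cplx1, a complexin that clamps vesicle fusion, had -4.78 and -3.99 in VSKO and -4.36 and -5.12 in HEMI, against -5.18 and -5.20 in WT, where it was not well above background. Cplx1 was at least 1.74-fold higher in VSKO than in WT, with an adjusted p of 0.386.

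Cplx2, another complexin, was near WT by every probe (VSKO minus WT -0.02 by the brightest), but its 5 probes do not read 1 transcript alike. In 4 of them all 60 bases are A or G, a repeat that the array design places on chromosomes 5, 6 and 13. Of the 34367 kept probes 52 had 54 or more such bases, so the level of 4.64 ± 0.02 in VSKO, 4.59 ± 0.15 in HEMI and 4.66 ± 0.19 in WT (SD, n = 2 each) cannot be credited to this gene. The fifth probe gave 3.18 and 3.31 in VSKO, 3.0 and 2.99 in HEMI, and 3.03 and 3.11 in WT, a VSKO minus WT difference of 0.18. The brightest repeat probe (chr6:140877310-140877369, minus strand) and the other (chr13:54485200-54485259, plus strand, both mm9) show the contrast, with the longest stretch of A and G in capitals.
Cplx2, repeat probe: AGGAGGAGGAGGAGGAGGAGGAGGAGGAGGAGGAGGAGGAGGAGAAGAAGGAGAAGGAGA
Cplx2, other probe: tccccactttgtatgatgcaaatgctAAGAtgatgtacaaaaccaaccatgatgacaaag

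The receptor and calcium-binding members held both calls near background. Hpcal4, a neuronal calcium sensor of the visinin-like family, was measurable in VSKO testes and in no other group. Its log2 levels were -4.20 and -4.36 in VSKO, both well above background, against -7.25 and -6.97 in HEMI and -7.27 and -6.71 in WT, where it was not. VSKO was at least 2.03-fold higher than WT (limma adjusted p = 0.0279) and at least 2.77-fold higher than HEMI (adjusted p = 0.0404). Since it passed the filter through VSKO alone, a difference from the other groups was built into its entry, and these p-values carry that limit. The folds are bounds: the dim group was set to the weakest measurable signal of each array, or to the probe's own signal if that was higher. With a different background correction (normexp) the fitted VSKO minus WT difference of Hpcal4 shrank to 0.44 (adjusted p = 0.114), which ended the call.

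A second Hpcal4 probe, 2481 bases upstream in the transcript and sharing no sequence with the first, gave the same picture. It had -4.83 and -3.59 in VSKO, -7.53 and -7.85 in HEMI, and -7.29 and -7.21 in WT, and was well above background on the VSKO arrays only. Hpcal4 is the called member with separate probes that both show the difference, and they are printed for that reason (plus strand, mm9, chr4:122871074-122871133 and chr4:122868593-122868652).
Hpcal4, brighter probe: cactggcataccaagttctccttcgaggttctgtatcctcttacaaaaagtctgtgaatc
Hpcal4, second probe: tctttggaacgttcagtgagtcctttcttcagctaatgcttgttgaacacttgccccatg

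Cacng2 (stargazin), which carries AMPA receptors to synapses, was among the values that shaped the list, and its levels are given as a description. The probe used had -3.63 and -2.34 in VSKO, against -7.80 and -8.09 in HEMI and -7.54 and -7.41 in WT, where it was not well above background. VSKO was at least 4.98-fold above WT and at least 6.79-fold above HEMI by this probe. A second Cacng2 probe, starting 110 bases upstream in the same transcript, did not show it: -7.23 and -6.27 in VSKO, -5.89 and -7.22 in HEMI, and -5.44 and -4.94 in WT, well above background on 1 WT array alone. The probes of this gene therefore disagree on the rise, and the second, below background on most arrays, gives no measured direction.

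Both Cacng2 probes lie on the minus strand of mm9, at chr15:77825180-77825239 for the probe used and chr15:77825290-77825349 for the second. They are shown to let their letters be compared. The probe used is 80.0% A and T with a run of 6 A, printed in capitals below, and the second is 55.0% A and T; whether this bears on the disagreement was not tested.
Cacng2, probe used: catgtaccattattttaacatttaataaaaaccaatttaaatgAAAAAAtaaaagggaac
Cacng2, second probe: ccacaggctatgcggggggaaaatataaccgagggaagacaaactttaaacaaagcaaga

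Among the other receptors, Grin1, the obligate NMDA receptor subunit, had -4.92 and -4.77 in VSKO, -4.86 and -4.91 in HEMI, and -4.53 and -4.57 in WT. All 4 arrays with a Sin3a deletion were below WT, by 0.30 in VSKO (limma adjusted p = 0.349). Scn3b, a sodium channel beta subunit, averaged -1.42 ± 0.95 in VSKO, -1.55 ± 0.67 in HEMI and -1.83 ± 0.43 in WT (SD, n = 2 each), so its arrays differed more within groups than between them. Mapk8ip2, a scaffold of the JNK kinases, had -3.02 and -2.81 in VSKO, -3.54 and -3.29 in HEMI, and -3.16 and -3.15 in WT. VSKO was above WT on both arrays and HEMI below, by 0.24 and 0.26, and neither difference passed the test. Its relative Mapk8ip1 was bright and close to WT (VSKO minus WT 0.08, 95% interval -0.33 to 0.49).

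Among the RNA-binding proteins, Elavl3 (HuC), a neuronal RNA-binding protein, was measurable in VSKO and WT but not in HEMI, with -3.80 and -2.98 in VSKO, -6.63 and -6.10 in HEMI, and -4.20 and -3.31 in WT. VSKO was at least 5.14-fold higher than HEMI (limma adjusted p = 0.119), and HEMI was lower than WT by at least 3.99-fold (adjusted p = 0.124). Its relative Elavl4 (HuD) had -0.40 and -0.66 in VSKO, -0.60 and -0.24 in HEMI, and -0.39 and -0.34 in WT, a VSKO minus WT difference of -0.16. Celsr3, a cadherin of axon guidance, had -2.07 and -2.79 in VSKO, -3.87 and -3.13 in HEMI, and -3.29 and -2.94 in WT. The difference of 0.68 between VSKO and WT did not pass the test (adjusted p = 0.448).

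The members with no measured level included Gria2, an AMPA receptor subunit and well-known REST target. Neither of its probes was well above background on any array, VSKO included. The same held for the 3 probes of Disp2, a relative of the Hedgehog release protein DISP1, and Calb1 (calbindin) was measurable on 1 WT array with 1 of its probes. The Disp2 probes had VSKO minus WT differences of 1.45, 0.87 and -0.37. The first of these had -6.22 and -5.66 in VSKO, -7.36 and -7.98 in HEMI, and -7.45 and -7.33 in WT. The differences were -0.38 and -0.37 for the Gria2 probes and -1.02 and -0.26 for those of Calb1. At signals below background such values are not measured levels, so a rise or its absence could not be measured for these genes.

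The repressor itself was present in all groups. Rest had 2.40 and 1.95 in VSKO, 2.36 and 2.32 in HEMI, and 1.96 and 1.88 in WT by the probe used. The VSKO arrays differed from each other more than their mean did from WT (difference 0.25 ± 0.18, SE; limma adjusted p = 0.570). Rcor1 had 3.14 and 2.87 in VSKO, 2.89 and 2.94 in HEMI, and 3.01 and 2.86 in WT by the probe used. Its groups overlapped, with a 95% interval of -0.30 to 0.44 for VSKO minus WT. By this probe of Rest, HEMI was above WT on both arrays (difference 0.42, limma adjusted p = 0.431). Second probes of Rest and Rcor1 gave VSKO minus WT differences of 0.40 and 0.29. The second Rest probe had 0.89 and 0.61 in VSKO, 0.63 and 0.72 in HEMI, and 0.28 and 0.42 in WT. That of Rcor1 had -1.53 and -1.80 in VSKO, -1.75 and -1.79 in HEMI, and -1.87 and -2.03 in WT. By both second probes, all arrays with a Sin3a deletion lay above WT.

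Loss of 1 Sin3a allele was not followed by a common rise of the members. In HEMI against WT, 0 of 36 members were called in either direction, where 0.0326% of all genes were called higher and 0.0855% lower. At an unadjusted p under 0.05 there were 9 members (25.0%), against 12.4% of all genes. The bright members had a median HEMI minus WT difference of -0.06, beside -0.03 over bright genes, within -0.98 (Syt1) and 0.81 (Chga). Both HEMI arrays exceeded both WT arrays for 6 bright members (20.5% of bright genes did) and lay below both for 12 (29.3% of bright genes did). Near background, the fitted differences spread from -2.61 (Elavl3) to 1.25 (Scg2), with Syt4, a synaptotagmin of dense-core granules, measurable in WT and not in HEMI (-4.05 and -5.06 in VSKO, -6.06 and -5.76 in HEMI, and -4.84 and -4.60 in WT).

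Between VSKO and HEMI, which shared the slide row and the deleted allele, limma called 3 members higher in VSKO: Stmn4, Hpcal4 and Cacng2. Of all genes 0.106% were called higher and 0.0407% lower. As above, Hpcal4 and Cacng2 entered through VSKO alone. Of the bright members 1 was called higher (Stmn4), where 0.0581% of bright genes were. The median difference of the bright members was 0.13, beside 0.02 over bright genes, with 21 of 30 above zero (70.0%, against 55.3% of bright genes). Both VSKO arrays exceeded both HEMI arrays for 12 bright members (18.1% of bright genes did) and lay below both for 1, Tubb3 (13.8% of bright genes did). Since this comparison shares its arrays with the others, its values stand beside theirs and are no repeat of them. With only the 4 VSKO and HEMI arrays in the fit, 0 members were called, and leaving out 1 array at a time left between 0 and 3.

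**Figure D3:**
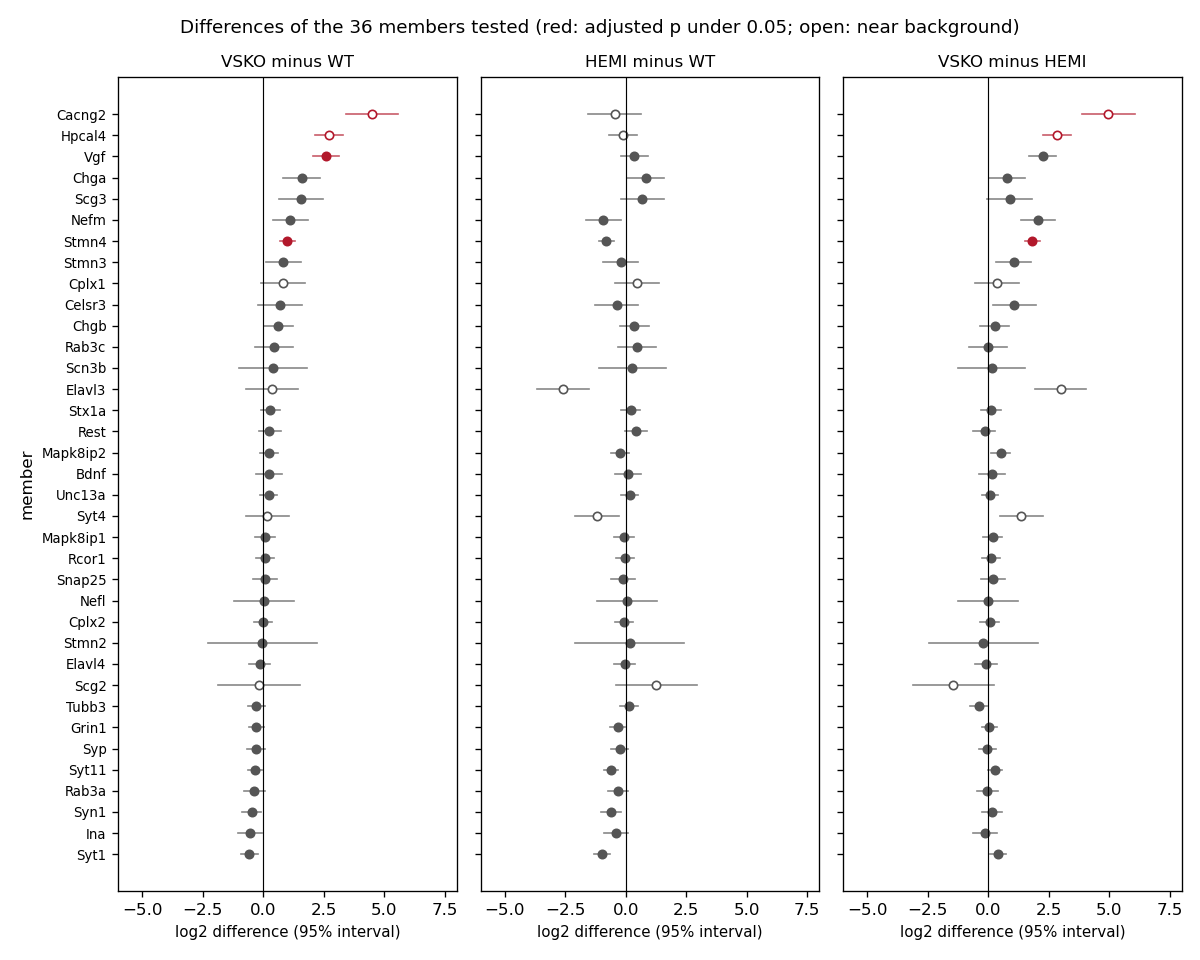
Log2 differences with 95% limma intervals (x axis) of the 36 tested members (y axis, ordered by VSKO minus WT) in the 3 comparisons. Red marks an adjusted p under 0.05 and open points mark members near background. Most members lie close to zero in all panels, and the red points lie to the right in VSKO minus WT and VSKO minus HEMI.

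The median level of the 30 bright members on each array was taken as well, without any gene-wise test. It was -0.71 and -0.47 in VSKO, -0.98 and -1.30 in HEMI, and -0.83 and -0.81 in WT. The VSKO arrays were the highest and the HEMI arrays the lowest, with a pooled SD within groups of 0.16. The median over all bright genes stayed between -0.06 and -0.04 on the same arrays. Members near the middle of the 30 levels set such a median, so it is not a median of differences. For HEMI minus WT the median difference of the same members was -0.06, beside -0.03 over bright genes.

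RefSeq promoter entries, 250 bases before to 50 after the gene start (GRCm38.p6), matched 27 of the 39 members and were searched for the 2 cores of the RE1 element on both strands. A gene was counted if any of its promoter entries held the core, so genes with more entries, such as Bdnf with 7 and Elavl4 with 4, matched more easily. The left core AGCACC was in 33.3% of the matched members, against 18.1% of all 27025 genes with an entry. The right core GGACAG was in 33.3%, against 24.7% of all. Either core was in 13 members (48.1%, against 37.6%). Members' promoters had a median GC content of 61.3%, against 52.8% overall. The 13404 genes tested on the array that have an entry lay nearer to the members, with 59.3% GC, the left core in 19.5%, the right core in 26.6% and either in 40.2%. Of the called members Hpcal4 and Cacng2 had an entry, and neither core was in it.

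Both cores in RE1 order, with 2 free bases between them, were found in 1 member, Gria2, and in 16 of all genes (0.0592%). The Gria2 promoter is printed because it holds this arrangement, in capitals and on the strand opposite to the gene, at chr3:80802786-80803085 (GRCm38.p6, minus strand). As given above, Gria2 stayed below background on the VSKO arrays as well. Scg2 and Unc13a held both cores in the same order but at other spacings, which were not counted. Sequence outside the promoter entries was not searched. A match is a run of letters and not a measured binding site.
Gria2 promoter: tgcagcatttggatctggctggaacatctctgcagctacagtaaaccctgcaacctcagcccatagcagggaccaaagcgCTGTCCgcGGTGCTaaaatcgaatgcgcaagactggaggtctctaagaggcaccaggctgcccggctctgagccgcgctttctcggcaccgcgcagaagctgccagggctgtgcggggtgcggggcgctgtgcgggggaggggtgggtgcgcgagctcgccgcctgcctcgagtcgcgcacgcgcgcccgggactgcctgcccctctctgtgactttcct

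Of 18 further partners in the complexes around REST, Sin3a among them and all bright, limma called 0 in VSKO against WT (2 at an unadjusted p under 0.05). Their median difference was 0.00, and that of HEMI minus WT was 0.03. Apart from Sin3a, the largest difference among them was Rcor2, a relative of RCOR1, with 2.24 and 2.11 in VSKO, 2.5 and 2.51 in HEMI, and 2.69 and 2.66 in WT (VSKO minus WT -0.50, limma adjusted p = 0.156). A list of 26 other neuronal genes often given as REST targets had 20 tested, of which limma called 0 (6 at an unadjusted p under 0.05), with a median VSKO minus WT difference of 0.12. The largest were Chrnb2, a nicotinic receptor subunit, at least 3.44-fold higher in VSKO than in WT (adjusted p = 0.180), and Sez6, a brain membrane protein, with a difference of 1.45 (adjusted p = 0.299).

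General neuronal genes had a median on the other side of zero. Of 24 listed, 18 were tested, their median VSKO minus WT difference was -0.23, and 1 was called, lower in VSKO (7 had an unadjusted p under 0.05). This was Nsg2, a neuronal endosomal protein, with -4.13 and -4.07 in VSKO, -4.00 and -3.93 in HEMI, and -2.79 and -3.02 in WT (limma adjusted p = 0.0389). Next was Elavl2 (HuB), an RNA-binding protein that germ cells also make, at -0.97 (adjusted p = 0.0569).

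Markers of nerve-related cells were measured beside the members, since testes can carry nerve fibres and chromaffin-like cells. Of 15 autonomic and chromaffin genes 12 were tested and limma called 0 (3 at an unadjusted p under 0.05). Dbh and Chrna3 were among those with no kept probe, and the median VSKO minus WT difference was -0.30. The mean log2 level of the list was -2.78 to -2.67 in VSKO, -2.80 to -2.24 in HEMI and -2.32 to -2.27 in WT. Single genes differed in direction. Slc18a1 and Slc18a2, the vesicular monoamine transporters, had the largest fitted VSKO minus WT differences, -2.06 and -1.32 (limma adjusted p = 0.212 and 0.0925). Slc18a1 was not well above background on either VSKO array, so only a bound holds: at least 2.01-fold higher in WT. Phox2a, an autonomic transcription factor named after its values were seen, had -0.83 and -0.78 in VSKO, -1.84 and -1.59 in HEMI, and -1.83 and -1.50 in WT (VSKO minus WT 0.85, adjusted p = 0.115). It was thus above the other 4 arrays in VSKO. The part of nerve or chromaffin cells in the members' differences was not tested. Of 10 peripheral glia genes 7 were tested and limma called 0 (0 at an unadjusted p under 0.05), with mean levels of -1.24 to -1.21 in VSKO, -1.15 to -1.03 in HEMI and -1.19 to -1.15 in WT. The largest differences there were 0.39 for Gfap, which was measurable on only 1 WT array, and -0.32 for Fabp7.

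Markers of testis cell types were measured as well. Of 12 germ cell genes 1 was called lower in VSKO than in WT, Nanos2, a germ cell RNA-binding protein, and 6 had an unadjusted p under 0.05 (median of the list -0.36). The fitted difference of Nanos2 was -2.93. It was not well above background in VSKO, so only a bound holds: at least 5.96-fold lower than in WT. Stk31, a germ cell kinase-like gene, was next, at -0.79. Of 7 tested fetal Leydig genes 1 was called lower, Cyp17a1, a steroidogenic enzyme, at -1.40, and 5 had an unadjusted p under 0.05 (median -0.89). Star, the cholesterol carrier of steroid synthesis, differed by -1.83 without passing the test (limma adjusted p = 0.149). Sertoli, interstitial progenitor, endothelial, macrophage and skeletal muscle lists had 0 limma calls and medians of 0.04, 0.12, -0.23, -0.16 and -0.89, with 1 Sertoli gene and 0 of the others at an unadjusted p under 0.05. The largest differences were 0.44 and -0.35 for Sox8 and Gdnf (Sertoli), -0.36 and 0.35 for Tcf21 and Gli1 (progenitors), and -0.36 and 0.29 for Cdh5 and Tie1 (endothelium). They were -0.69 and 0.54 for Lyz2 and Cd68 (macrophages), and -1.46 and -1.25 for Tnnt3 and Ckm (muscle). The part of cell makeup in the members' differences was not tested.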

How the data were processed

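The deposited array files hold, per spot, a processed signal, an intensity on a linear scale that the scanner software had already background-subtracted and detrended, and which gives dim spots a surrogate value, together with mean and local background intensities. Further deposited columns are quality flags of 0 or 1 for outliers, saturation and signal well above background (unit: other, with no signal in them). The file headers give version 10.7.3.1 for the modules of Agilent Feature Extraction, while version 8.5.1.1 stands in the submitters' processing notes. The value table of the series, deposited by the authors holds an intensity too: each array's processed signal over its median, matched within 0.00105%.

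From these files, outlier spots were left out, the processed signal was taken to log2, each array's 75th percentile over non-control spots was subtracted, and spots of a probe were averaged. Probes were kept if measurable on both arrays of any group, by the well-above-background flag (34367 of 55681), with the brightest kept probe per gene, which left 24570 genes. Limma 3.58.1 (R 4.3.3; lmFit and eBayes) was fitted to all 6 arrays without covariates, with Benjamini-Hochberg adjustment over all genes, and an adjusted p under 0.05 was a call. Intervals are 95%, and the number of arrays limits the precision.

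The members and all lists were chosen with earlier results of these data known. Of the members, array values are given for Rest, Rcor1, every called member, every bright member whose VSKO and WT arrays do not overlap or that differs from WT by 1 or more, and the 3 members near background with the largest difference in each comparison; the others are summarised. Of each other list, called genes and the 2 genes with the largest VSKO minus WT differences are named, and a few more where the text says so. Series labels number the replicates in each group. The correlations of same-numbered arrays' deviations from their group means were -0.037, -0.028 and -0.007, so these arrays showed no shared deviation. This cannot tell whether same-numbered animals were related or handled together. Alternatives covered scaling, background correction, filter, probe choice, spread model, arrays in the fit, a replicate block and each array left out. A fit without the repeat-rich Cplx2 probes was chosen after seeing the data. Probe coordinates are mm9, from the array design.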

Additional observations from a re-analysis of the deposited data

How the results depend on the processing

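The median difference of the bright members stayed on its side of zero under every alternative, at 0.09 to 0.20 for VSKO minus WT, -0.06 to -0.02 for HEMI minus WT and 0.06 to 0.14 for VSKO minus HEMI; with 1 array left out it ranged from 0.07 to 0.19, -0.15 to -0.01 and 0.12 to 0.20. The counts of calls did not hold as well. Members called for VSKO minus WT (4) numbered 2 with normexp or with only probes well above background on all 6 arrays, and 0 without a filter, with only 4 arrays or with the replicate block, and 0 to 2 with 1 array left out. For HEMI minus WT (0) there was 1 with trend and robust settings (Syt1) and 0 with 1 array left out. For VSKO minus HEMI (3) there was 1 with quantile scaling, normexp, the all-6 filter or every kept probe tested, 0 without a filter, with 4 arrays or with the replicate block, and 0 to 3 with 1 array left out. The cause of these losses was not tested, but normexp shrank the differences of the near-background Cacng2 and Hpcal4 to 1.40 and 0.44.

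All genes called for VSKO minus WT (235) numbered 12 without a filter, 384 with trend and robust settings, 48 with 4 arrays, 17 with the replicate block and 0 to 69 with 1 array left out. For HEMI minus WT (29) they numbered 52 with median scaling, 92 with normexp, 0 without a filter, 57 with the all-6 filter, 167 with trend and robust settings, 4 with 4 arrays, 0 with the replicate block and 0 to 22 with 1 array left out. For VSKO minus HEMI (36) they numbered 74 with median scaling, 17 with quantile scaling, 20 with normexp, 5 without a filter, 15 with the all-6 filter, 62 with trend and robust settings, 0 with 4 arrays or the replicate block, and 0 to 41 with 1 array left out. With the replicate block, 3428, 2782 and 1864 genes had an unadjusted p under 0.05 in the 3 comparisons.

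Small differences changed sign. For VSKO minus WT, Scg2 was 0.11 with normexp; with 1 array left out, Rcor1 ranged from -0.06 to 0.21, Syt4 from -0.35 to 0.67, Scg2 from -1.25 to 0.87 and Elavl3 from -0.07 to 0.81. For HEMI minus WT, Rcor1 was 0.02 with median scaling and Cacng2 0.05 with normexp; with 1 array left out, Rcor1 ranged from -0.09 to 0.06, Hpcal4 from -0.40 to 0.16, Elavl4 from -0.23 to 0.13 and Tubb3 from -0.02 to 0.26. For VSKO minus HEMI, median scaling, quantile scaling and normexp gave Grin1 -0.03, -0.04 and -0.05, quantile scaling and normexp gave Unc13a -0.02 and -0.03, and normexp gave Syp 0.01. With 1 array left out, Rcor1 ranged from -0.04 to 0.23, Ina from -0.33 to 0.03, Syp from -0.12 to 0.03, Stx1a from -0.07 to 0.28, Rest from -0.39 to 0.06, Cplx1 from -0.04 to 0.75, Grin1 from -0.04 to 0.11, Elavl4 from -0.29 to 0.07 and Rab3a from -0.14 to 0.06.

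Where a group lost 1 array, its lone array was taken to vary like the other groups. A probe below background on both arrays of a group gives a bound and no level.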

Other observations

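How bright a member looked depended on the probe. Of 14 members with more than 1 probe, 4 (Elavl4, Grin1, Rab3c and Unc13a) had 1 probe that was well above background on all 6 arrays and another that was so on 0 arrays. The brightest Rab3c probe averaged 3.59 ± 0.56 in VSKO, 3.59 ± 0.27 in HEMI and 3.15 ± 0.23 in WT (SD, n = 2 each), and an overlapping probe that shares 54 bases with it gave 2.91, 2.98 and 2.44. The remaining Rab3c probe, farther along the transcript, averaged -7.86, -7.82 and -7.49 in the same groups and was below background throughout. Rab3c thus counts as bright through the overlapping probes alone. Whether those probes read only this gene was not tested. Elavl4, at -0.53 in VSKO, -0.42 in HEMI and -0.37 in WT by its bright probe, averaged -7.68, -6.56 and -6.78 by the other, and neither probe gave a call. Only 1 of these probes per gene entered the results above, and the remaining 25 members had a single probe, so that such a disagreement could not be seen for them.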
